A study of Apis mellifera with 13 samples.

Results

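The arrestin and opsin genes of the honey bee, Apis mellifera, were followed in RNA from worker antennae. The members were chosen by gene symbol, as the genes named Arr1, Arr2, Arr3, Blop, Lop1, Lop2 and UVop (spelt Uvop) in both deposited tables. All 7 names were found, 3 arrestins and 4 opsins among 13414 genes per table. The study asked how the antennal transcriptome of bees that open or empty brood cells infested by the mite Varroa (VSH) differs from that of bees never seen at such tasks (NVS), and set this beside foragers (FOR) and nurses (NUR). There were 13 libraries, 4 of VSH, 4 of NVS, 2 of FOR and 3 of NUR bees. VSH and NVS bees were marked workers that had emerged from brood of 1 colony selected for hygiene against the mite and lived together in 1 observation hive, with a mean age of 7.5, 9.75, 12.5 and 17 days in VSH1 to VSH4 and of 7.5, 9.5, 12.25 and 17.5 days in NVS1 to NVS4. Foragers came back with pollen and nurses had their heads in cells of young larvae, both in standard hives, and no age is given for them. The colonies were hybrids of ligustica and carnica bees, and only the flagellum, the long outer part of the antenna, was used. Each sample held 4 pairs of antennae by the labels, while the study's methods describe extracts of that size combined before library preparation. Every library is thus a pool of bees, and the labels do not say which hive a forager or nurse library came from.

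Opsins are receptors in the cell membrane that carry a retinal chromophore and pass on the capture of light through a G protein. Honey bees have an ultraviolet (UVop), a blue (Blop) and long wavelength opsins, of which Lop1 is the main one of the compound eye and Lop2 is known from the ocelli. Arrestins bind activated receptors of this class and end their signal. In Drosophila, Arr1 and Arr2 quench rhodopsin in the eye and are also found in neurons of the antenna, where they take part in responses to odours. The files do not say which fly arrestin Arr3 corresponds to, and no role is given to it here.

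The deposited values are pseudo-counts, reads per gene adjusted by the authors to a common library size and not divided by transcript length. Each table was normalised apart. Values are therefore compared for 1 gene between libraries of 1 table, and no order of levels between genes is given. In bulk antennae, fewer cells with a transcript and less transcript per cell cannot be told apart. The column totals were 1.92e+07 to 2.03e+07 for VSH and NVS and 3.36e+07 to 3.47e+07 for FOR and NUR, and do not show the depth of a library. NUR2 stood apart on the first principal component of its table (46.4, against -27.2 to 1.25 in the other libraries), and VSH4 held the highest sum over 5 muscle genes (1583, against 89.4 to 171 in NVS). Or2, the gene of the obligate odorant co-receptor of antennal neurons, was present in every library, at 9239 to 13125 in VSH and NVS and at 13320 to 21394 in FOR and NUR bees, and did not pass in limma in a comparison (smallest adjusted p = 0.487).

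Arr3 (GB42604) varied little between the 8 libraries of VSH and NVS bees. Its value was 7161, 7479, 6910 and 7030.1 in VSH1 to VSH4 and 7549, 7877, 6966 and 7544 in NVS1 to NVS4. The groups overlapped, at 7145 ± 245 (SD, n = 4) and 7484 ± 379 (SD, n = 4), and the highest library was 1.14 times the lowest. On the scale of log2(value + 1) the SD over the 8 libraries was 0.068, against a median of 0.114 for the 3623 genes with a mean of at least 1000, of which 10.2% had a smaller SD. Within each of the 4 age-matched pairs the VSH library lay below the NVS library, by 0.01 to 0.10 on the log2 scale. The log2 difference between the groups was -0.07 (95% confidence interval -0.20 to 0.07, adjusted p = 0.717 from limma).

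Arr2 (GB51068) stood at 103, 52.7, 60.3 and 72.6 in VSH1 to VSH4 and at 65.6, 80.2, 81.4 and 70.8 in NVS1 to NVS4. The highest and the lowest of the 8 values were both from VSH bees, and the NVS values lay between them. The means were 72.2 ± 22.3 (SD, n = 4) and 74.5 ± 7.61 (SD, n = 4), and the log2 difference was -0.09 (interval -0.56 to 0.39, adjusted p = 0.913 from limma). Its sign rested on single libraries, being -0.27 without VSH1 and 0.05 without VSH2.

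Arr1 (NCBI gene 412907) was at 67.3, 32.3, 40.7 and 62.6 in VSH1 to VSH4 and at 46.3, 35.9, 47.5 and 44.6 in NVS1 to NVS4. As for Arr2, the VSH libraries spanned the NVS ones, with VSH1 highest and VSH2 lowest in both genes. The means were 50.7 ± 16.9 (SD, n = 4) and 43.6 ± 5.29 (SD, n = 4), a log2 difference of 0.16 (interval -0.41 to 0.73, adjusted p = 0.849 from limma). It was 0.01 without VSH1, 0.04 without VSH4 and 0.35 without VSH2. In a later reference assembly, Amel_HAv3.1, Arr1 overlaps LOC409664, which stood at 914 to 1250.4 in the same libraries. The study's methods name a stranded library kit. Whether the counting kept the strands apart is not given in the sources used here, so that reads of such overlapping genes may not be fully separate.

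**Figure D1:**
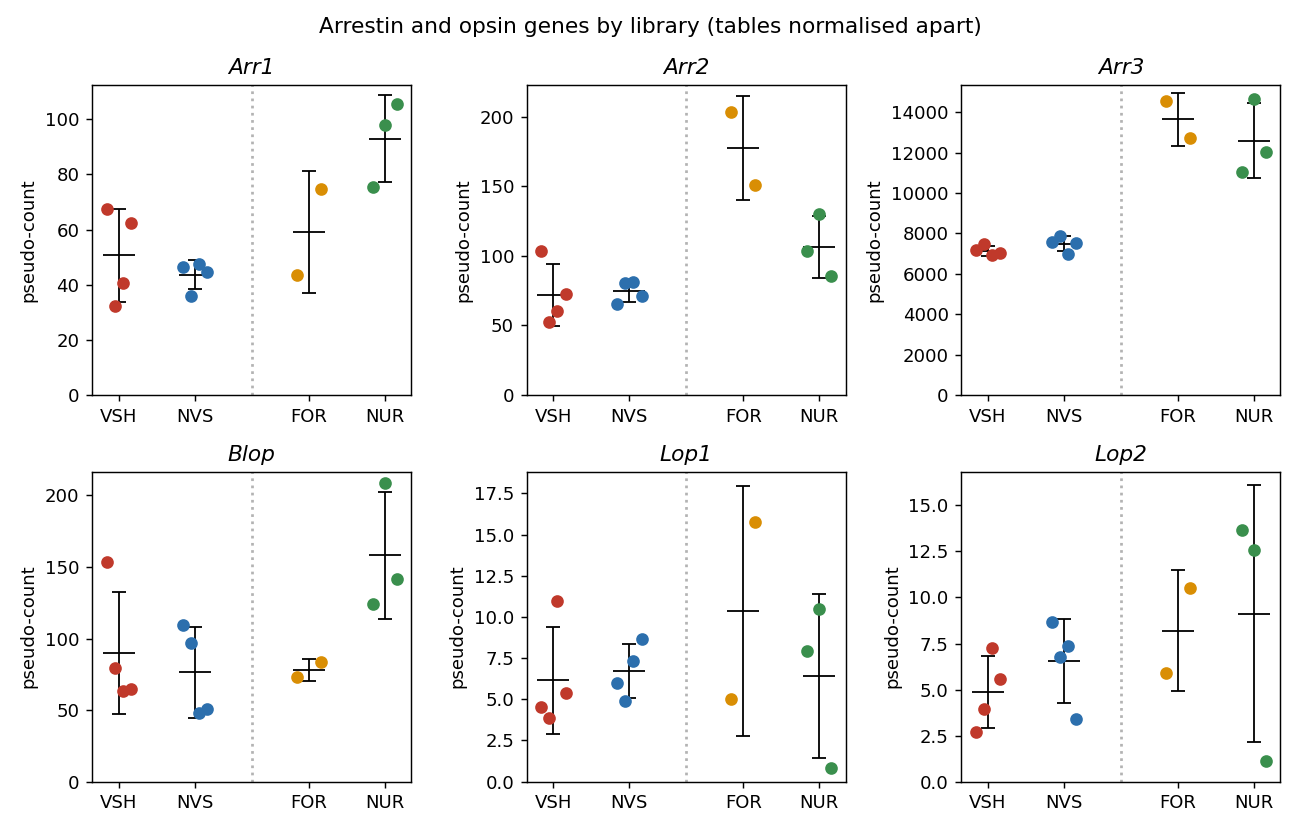
Pseudo-counts (y axis, from 0) of 3 arrestin and 3 opsin genes in each library (points) by group, with the mean and SD of the group in black. The dotted line parts the tables, which were normalised separately and should not be compared across it. VSH and NVS points overlap in every panel, while the FOR and NUR points of Arr1, Arr2 and Blop do not. Over all genes tested 32.6% show no overlap between FOR and NUR, and for Arr1 the values of FOR3 and NUR1 are nearly equal.

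Blop (GB41643), the blue opsin gene, was counted in every library, at 153, 79.1, 63.6 and 64.8 in VSH1 to VSH4 and at 109.6, 96.9, 48.3 and 50.5 in NVS1 to NVS4. In both groups the libraries of the younger bees were the higher ones. The groups overlapped, with means of 90.2 ± 42.6 (SD, n = 4) for VSH and of 76.3 ± 31.5 (SD, n = 4) for NVS bees and a log2 difference of 0.23 (interval -0.48 to 0.94, adjusted p = 0.820 from limma). The VSH library was higher in 3 of 4 pairs, and without VSH1 the difference was -0.05.

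The long wavelength opsin genes had few reads. Lop1 (GB50196) ranged from 3.84 in VSH2 to 10.9 in VSH3 and from 4.92 to 8.64 in NVS bees. Lop2 (GB50034) ranged from 2.72 in VSH1 to 7.23 in VSH3 and from 3.38 in NVS4 to 8.70 in NVS1. Groups overlapped for both genes, and their log2 differences were -0.18 (interval -1.19 to 0.84) and -0.37 (interval -1.44 to 0.70, adjusted p = 0.812 from limma), intervals wide enough to hold changes of either sign. Lop1 and Lop2 are next to each other in Amel_HAv3.1 and are related in sequence, so that the split of reads between them is uncertain. Uvop (GB51369), the ultraviolet opsin gene, was listed at 0 in all 13 libraries and was not tested.

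Of the 7 members, 6 reached the minimum sum of 20 in this table and entered the comparison of 10204 genes. At an adjusted p of 0.05 in limma 0 passed, and 0 were below 0.05 before adjustment. Over all genes 0.0392% passed and 11.2% were below 0.05 before adjustment. The VSH and NVS values overlapped for all 6, where 6.13% of the tested genes showed no overlap. With the age-matched libraries paired as a replicate block, 127 genes passed over the whole table, and none of the 6 was among them (smallest adjusted p = 0.564 for Arr3, from limma). The study's own edgeR test called more genes than these fits, here and between FOR and NUR. The study also reported a larger share of virus reads in NVS than in VSH antennae, and its part in these values was not tested.

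On age, Blop had the smallest p of the members, although it did not pass the test over all genes. It stood at 79.1 to 153 in the 4 libraries with a mean age of 7.5 to 9.75 days and at 48.3 to 64.8 in the 4 with 12.25 to 17.5 days. These ranges did not overlap, in VSH and NVS bees alike, and the means were 109.7 ± 31.6 (SD, n = 4) and 56.8 ± 8.59 (SD, n = 4), a ratio of 1.93. The split at this age was made after the values were seen, and 7.71% of the tested genes had no overlap across it. With group as a term, the slope of Blop was -0.12 on the log2 scale per day of mean age (standard error 0.03, interval -0.18 to -0.05, adjusted p = 0.167 from limma), the 180th smallest p of 10204 genes. Leaving out 1 library at a time gave slopes of -0.14 (without VSH4) to -0.09 (without VSH1), and over 16 alternatives the adjusted p ran from 0.112 to 0.512.

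The slopes of the other members had intervals that include 0. For Arr3 the slope was -0.0048 per day (interval -0.023 to 0.014), for Arr2 -0.012 (interval -0.078 to 0.054) and for Arr1 0.013 (interval -0.066 to 0.092). Lop1 had a slope of 0.05 and Lop2 one of -0.01. The sign turned for Arr1 without VSH4 (-0.017) or VSH2 (-0.0011), for Arr2 without VSH1 (0.022) and for Lop2 without NVS1 (0.0093) or NVS4 (0.066). Of the 6 members 0 passed in limma and 1, Blop, was below 0.05 before adjustment, against 0.147% and 12.3% of all genes tested. No member passed the test for a difference between VSH and NVS bees in the slope on age (0 of 6 by adjusted and by unadjusted p from limma, where 0% of all genes passed and 2.86% had an unadjusted p under 0.05). For Blop the difference of slopes was 0.0043 (interval -0.14 to 0.15).

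**Figure D2:**
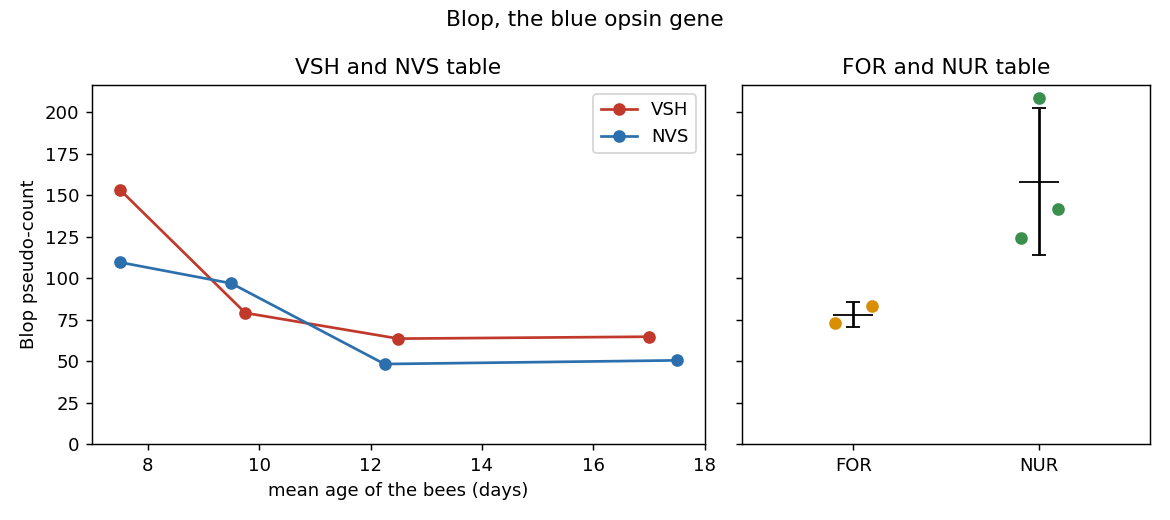
Pseudo-counts of Blop (y axis, from 0) against the mean age of the bees in days for VSH and NVS libraries (left, points joined in order of age), and by group for foragers and nurses (right, points with mean and SD). The 4 younger libraries lie between 79.1 and 153 and the 4 older between 48.3 and 64.8, and both FOR libraries lie below the 3 NUR libraries. Over all genes tested 7.71% show no overlap by age and 32.6% none between FOR and NUR. The panels share a y axis, but their tables were normalised separately and should not be compared by height.

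Blop was also compared between foragers and nurses, whose ages are not given. It was at 72.9 and 83.4 in FOR2 and FOR3 and at 124, 208 and 142 in NUR1 to NUR3. Every nurse library was above both forager libraries, a lack of overlap that 32.6% of all genes tested showed. The means were 158 ± 44.4 (SD, n = 3) in nurses and 78.1 ± 7.45 (SD, n = 2) in foragers. The log2 difference was -0.98 (standard error 0.33, interval -1.76 to -0.19) and did not pass over all genes (adjusted p = 0.314 from limma). Without NUR2, the library that stands apart, it was -0.76 (adjusted p = 0.391 from limma).

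Arr1 and Arr2 had opposite signs in this comparison. Arr2 was at 204 and 151 in FOR2 and FOR3 and at 103, 131 and 85.8 in NUR1 to NUR3, each forager library being above each nurse library. Its log2 difference was 0.74 (interval -0.01 to 1.48, adjusted p = 0.392 from limma) and 0.89 without NUR2. Arr1 was at 43.5 and 74.9 in foragers and at 75.5, 97.9 and 105.6 in nurses. The groups did not overlap, although FOR3 and NUR1 were nearly equal. This lack of overlap, and that of Arr2, was shared by 32.6% of all genes tested. The log2 difference of Arr1 was -0.68 (interval -1.59 to 0.23, adjusted p = 0.516 from limma). Without NUR2 it was -0.64, without FOR2 -0.30 and without FOR3 -1.07.

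Arr3 was at 14563 and 12714 in FOR2 and FOR3 and at 11060.4, 14644 and 12045 in NUR1 to NUR3, so that the groups overlapped. Its SD on the log2 scale was 0.176 over the 5 libraries, and 60.7% of the 5221 genes with a mean of at least 1000 had a smaller one. The log2 difference was 0.12 (interval -0.23 to 0.47, adjusted p = 0.773 from limma). It was 0.24 without NUR2 and 0.03 without FOR2.

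The long wavelength opsins scattered most. Lop1 was at 4.99 and 15.7 in foragers and at 7.94, 10.5 and 0.837 in nurses, and Lop2 at 5.88 and 10.5 in foragers and at 13.7, 12.6 and 1.10 in nurses. NUR3 was the lowest library for both genes. The log2 differences of 0.80 and 0.25 had intervals from -1.66 to 3.27 and from -2.19 to 2.70. Without NUR3 they were -0.02 and -0.66.

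Of the 6 members tested among 10436 genes with a sum of at least 15, 0 passed between FOR and NUR in limma, and 1, Blop, was below 0.05 before adjustment. Over all genes 0.0958% passed and 13% were below 0.05 before adjustment. Groups did not overlap for 3 of the 6 members, Arr1, Arr2 and Blop, and for 32.6% of all genes tested. The sum over 5 muscle genes also separated the groups, at 271 to 307 in FOR and 90.6 to 129 in NUR libraries. It was set mostly by Mhc1, while TpnT, Mlc2 and TpnI overlapped between the groups. The part of muscle in the values of the members was not tested.

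**Figure D3:**
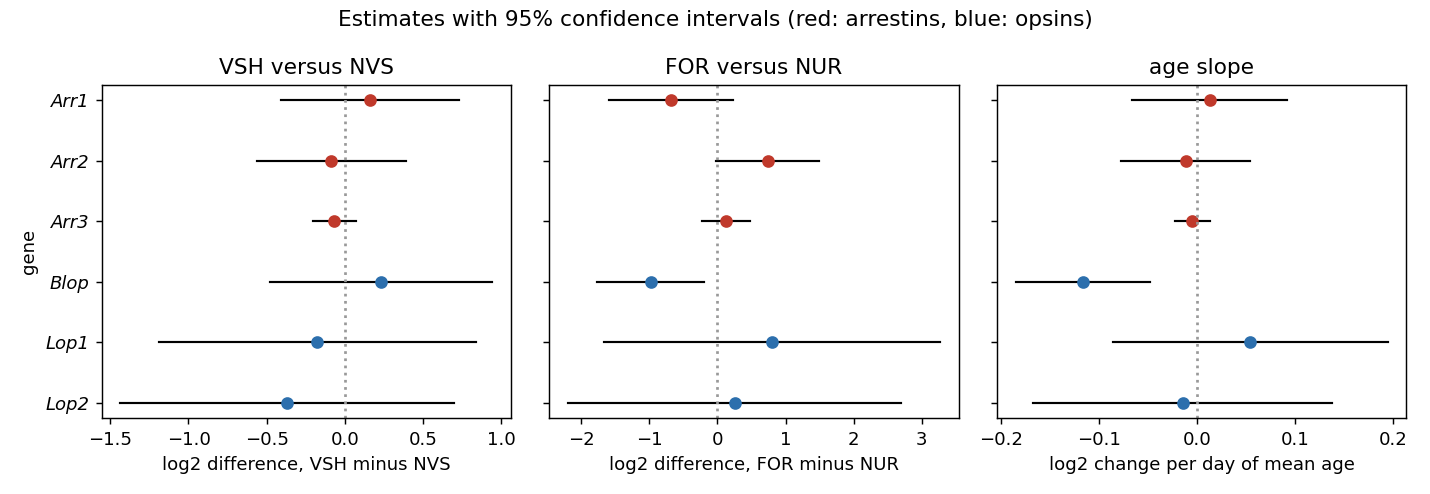
Estimates (points, arrestins in red and opsins in blue) with 95% confidence intervals (lines, not adjusted for the number of genes) for 6 members in 3 fits. The x axes are the log2 difference of VSH minus NVS, the log2 difference of FOR minus NUR and the log2 change per day of mean age. The interval lies apart from 0 for Blop in the last pair of panels, at -1.76 to -0.19 and at -0.18 to -0.05, and includes 0 for all others.

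Since Arr1 and Arr2 are counted in the same library, their log2 difference does not depend on how a library was scaled, apart from the pseudocount. Arr1 minus Arr2 was -2.21 and -1.003 in FOR2 and FOR3 and -0.45, -0.41 and 0.30 in NUR1 to NUR3. Both foragers lay below all nurses, and the means differed by -1.42 (exact permutation test, two-sided, p = 0.1, the smallest that 10 splits of these libraries allow). Arr1 was lower and Arr2 higher in each forager library than in each nurse library, so that this separation followed from those values. It adds no support to them. Without FOR2 the difference was -0.82. Between VSH and NVS bees it was 0.25, from means of -0.52 ± 0.21 (SD, n = 4) and -0.76 ± 0.27 (SD, n = 4), within overlapping libraries (exact permutation test, two-sided, p = 0.257). Adjusted over both comparisons the p-values were 0.2 and 0.257 (exact permutation test).

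**Figure D4:**
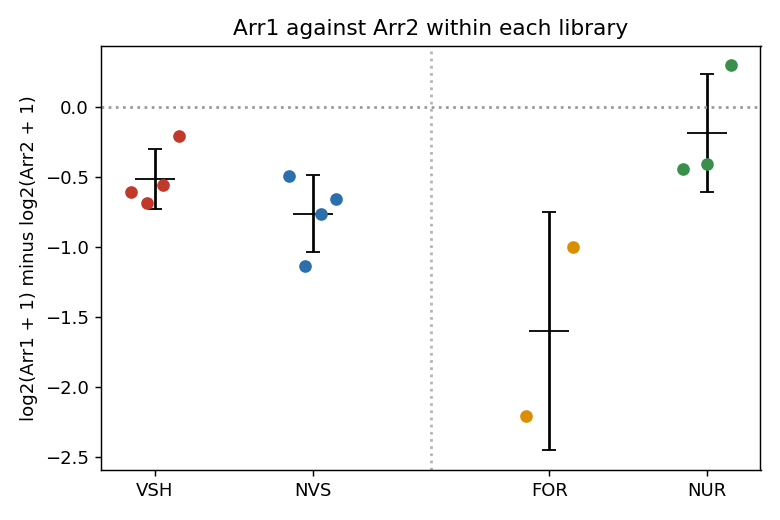
Difference of log2(value + 1) between Arr1 and Arr2 (y axis) in each library (points) by group, with the mean and SD in black. Forager libraries lie at -2.21 and -1.003 and nurse libraries at -0.45 to 0.30, while VSH and NVS libraries overlap.

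Other genes of the phototransduction cascade, named after their Drosophila counterparts, were read in the same libraries. Of 16 genes matched by symbol, 9 were no members. The scaffold gene inaD was at 5377 to 7787 over the VSH and NVS libraries, rdgB, for a phosphatidylinositol transfer protein, at 5194 to 6639, and Gprk1, for a kinase that phosphorylates G protein-coupled receptors, at 1583 to 1962. The genes of the cation channels that open at the end of the fly cascade had few reads, TRP at 0 to 8.33 and TRPL at 0 to 3.20. TRP and TRPL stayed below the minimum on the sum in VSH and NVS bees, so that 7 of the 9 were tested there. Of these, 6 had a positive and 1 a negative log2 difference (median 0.09, against -0.002 over all genes), and 0 passed in limma with 1, inaD, at an unadjusted p under 0.05 (log2 difference 0.22, adjusted p = 0.358), against 11.2% of all genes.

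Between FOR and NUR bees 8 of the 9 were tested and 0 passed in limma. One of them, TRPL, reached the minimum sum through the nurse libraries alone, so that its test is not used. It was listed at 0 in both forager libraries and at 2.95, 9.40 and 4.45 in nurses. Of the other 7, 6 were positive and 1 negative, and 2 were at an unadjusted p under 0.05, against 13% of all genes. These were rdgA and Gprk1, of which rdgA was chosen for naming after its values were seen. The diacylglycerol kinase gene rdgA was at 1225 and 1595 in FOR2 and FOR3 and at 1625, 2626 and 2054 in NUR1 to NUR3 (log2 difference -0.56, adjusted p = 0.351 from limma). Gprk1 had the opposite sign, at 3089 and 3524 in foragers and 2746, 2599.5 and 2817 in nurses (log2 difference 0.28, adjusted p = 0.350 from limma).

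On age, 5 of 7 were positive and 2 negative, and 0 passed in limma. The 1 gene at an unadjusted p under 0.05, against 12.3% of all genes, was rdgA, with a slope of -0.03 per day (adjusted p = 0.374 from limma). It was at 900.0 to 1157 in the 4 younger libraries and at 823 to 877 in the 4 older ones. That lack of overlap, across a split made after the values were seen, was shared by 7.71% of all genes, and the lack of overlap of rdgA between foragers and nurses by 32.6%.

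Genes that mark the eye, neurons or a clock were read beside Blop. Of an eye list, sev, a receptor kinase gene of the developing fly eye, was at 1797 to 2571, and chp, for chaoptin, a cell surface protein of fly photoreceptors, at 130, 113, 143 and 147 in VSH1 to VSH4 and at 151, 175, 154 and 161 in NVS1 to NVS4. Every VSH library was thus below every NVS library for chp, a lack of overlap that 6.13% of all genes showed. The log2 difference of chp was -0.27 (adjusted p = 0.484 from limma) and that of sev 0.16 (adjusted p = 0.518). For chp the slope on age was 0.01 (adjusted p = 0.791 from limma), and it was at 133 and 179 in foragers and at 191, 253 and 176 in nurses. NUR2 had the highest value of both chp and Blop, and the lowest of sev. Among the VSH and NVS libraries, chp was highest in NVS2 and Blop in VSH1. Neither eye gene passed in a comparison in limma. Their summed value, set mostly by sev, was 2152 to 2684 in VSH and 1951 to 2308 in NVS libraries. It was 4023 to 4796 in FOR and 3340.0 to 4454 in NUR libraries. Between FOR and NUR the log2 difference was 0.17 for sev and -0.40 for chp. The signs thus differed there too, and the sum does not stand for both genes. The part of eye cells in the values of Blop was not tested. The 5 neuron genes, cpx, Syn, Syx1A, Syt1 and brp, which act in synaptic release, summed to 31230 to 37731 in VSH, 31886 to 39756 in NVS, 65991 to 80365 in FOR and 58400 to 84000 in NUR bees, ranges that overlap within each table. Of them 0 passed in a comparison in limma, and Syn, for the vesicle protein synapsin, was below 0.05 before adjustment between VSH and NVS (log2 difference -0.28, adjusted p = 0.296). So was cpx for the difference between VSH and NVS in the slope on age (-0.05, adjusted p = 0.999 from limma). Over all genes 11.2% and 2.86% were below 0.05 before adjustment in these fits. Of the muscle genes Mhc1, TpnT, Mp20, Mlc2 and TpnI, which code for proteins of the contractile apparatus, 0 passed as well. Mp20 was at 0 in all nurse libraries and reached the minimum sum through FOR2 (20.1), so that its test between FOR and NUR is not used. Over the VSH and NVS libraries, VSH4 held 305 of a sum of 326 for Mp20, 223 of 245 for Mlc2 and 134 of 149 for TpnI. Mhc1, for myosin heavy chain, had a log2 difference of 1.64 between FOR and NUR (adjusted p = 0.157 from limma) and a slope of 0.18 on age (adjusted p = 0.219). In VSH4 Mhc1 was at 582, against 62.0 to 131 in the other 7 libraries of that table, and its slope was 0.28 larger in VSH than in NVS bees (adjusted p = 0.999 from limma). Below 0.05 before adjustment were Mhc1 in each of these fits, TpnI on age and Mlc2 for the difference of slopes. The shares of all genes were 13% between FOR and NUR, 12.3% on age and 2.86% for the difference of slopes.

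Clock genes were included because light sets the circadian clock. Of 7 such genes 0 passed in a comparison in limma, while 3 were below 0.05 before adjustment in VSH against NVS (Pdp1, Vri and Cry2), 3 in FOR against NUR (Cyc, Per and Tim2) and 1 on age (Tim2), of which Cry2, Per and Tim2 are named because they fell below it. Over all genes 11.2%, 13% and 12.3% were below 0.05 before adjustment in these fits. Pdp1, an activator of the fly clock, averaged 11319 ± 567 (SD, n = 4) for VSH against 9575 ± 475 (SD, n = 4) for NVS bees (log2 difference 0.24, adjusted p = 0.244 from limma). Vri, its repressor counterpart, averaged 4017 ± 87.7 and 4541 ± 365 (log2 difference -0.17, adjusted p = 0.355 from limma). Cry2 had a log2 difference of 0.31 (adjusted p = 0.326 from limma). VSH and NVS libraries did not overlap for Pdp1, Vri and Cry2, a lack of overlap that 6.13% of all genes showed. Cyc, a partner of Clk, was at 6093 and 6745 in foragers and at 3679, 3122 and 3435 in nurses (log2 difference 0.91, adjusted p = 0.0648 from limma). Per was at 1918 and 2287 in foragers and at 3216, 2943 and 3671 in nurses (log2 difference -0.64, adjusted p = 0.155 from limma). Tim2, Per, Pdp1 and Clk, the last named for this, shared the negative signs of Blop on age and between FOR and NUR. Vri and Cyc were positive in both fits, and Cry2 was positive on age and negative between FOR and NUR. Some of these estimates were near 0, such as -0.0041 for Clk between FOR and NUR, and the sharing of signs was not tested. Tim2 had a slope of -0.07 on age (adjusted p = 0.286 from limma). Its log2 difference between FOR and NUR was -0.93 (adjusted p = 0.357 from limma). The slopes of Per, Pdp1 and Clk were -0.016, -0.0017 and -0.0045.

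The genes most like each member were taken as those with the highest Pearson r of log2 values over the 8 VSH and NVS libraries among 8132 or 8133 genes with a mean of at least 50, as a description, the 8 libraries sharing 1 hive and 1 normalisation. For Blop these were LOC412220 (0.976), wfs1, the gene of wolframin, a membrane protein of the endoplasmic reticulum (0.976), and LOC408536 (0.958). Over the 5 FOR and NUR libraries their r with Blop was 0.491, 0.958 and 0.929. For Arr3 they were LOC102656137 (0.979, and -0.179 over the 5), LOC552201 (0.931, and -0.431) and LOC411125 (0.901, and 0.549). For Arr2 they were LOC102654605 (0.955, and 0.708), Gem3, for an RNA helicase (0.949, and -0.576), and LOC411891 (0.879, and -0.302). For Arr1 they were LOC100578924 (0.887, and 0.743), LOC411908 (0.874, and 0.296) and LOC410261 (0.862, and 0.447). For 4 of these 12 genes r was negative in the FOR and NUR libraries. LOC410563, which overlaps Blop in Amel_HAv3.1, stood at 248 to 409 in VSH and NVS bees with a slope of 0.02 on age (adjusted p = 0.755 from limma) and a log2 difference of 0.06 between FOR and NUR.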

How the data were processed

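RNA was measured in 13 libraries of antennae. The submitters' processing notes also list CASAVA 1.8.2. Per the labels and the study's methods, the authors checked reads with FastQC, mapped these to the Amel 4.5 genome by TopHat2 on Bowtie2 2.2.3, obtained gene counts from HTSeq 0.6.1p1 and scaled each table by Relative Log Expression in edgeR 3.4.0. The deposited values are a signal, pseudo-counts that are not whole numbers, so that no count test was run. Values below 1e-10 were set to 0. The depth of each library is unknown from the values. Linear models on log2(value + 1) were fitted by limma 3.58.1 (R 4.3.3, trend on the mean, two-sided), and p-values were adjusted by Benjamini-Hochberg over every tested gene, with 0.05 as threshold. Genes needed a sum of at least 20 (VSH and NVS) or 15 (FOR and NUR), and intervals are 95%. The fit was tested on simulated data. Replicates are pools of bees, and p-values measure the spread between pools, VSH and NVS pools being from 1 hive. Same-numbered VSH and NVS libraries are matched by age in the labels, and their deviations from the group mean correlated at 0.161 to 0.388 over 8133 genes, so that a paired fit was made. The reference table Amel_HAv3.1 served for names and neighbours, and matched 10485 genes and all 7 members. Lists were matched by symbol alone, since no gene descriptions were used.

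The members and lists were chosen with earlier results of these data known. Named genes were all members, list genes that passed, the 3 list genes with the highest mean in each list, and for each member with a mean of at least 10 the 3 genes most like it. Other names are marked as chosen later. Alternatives were a pseudocount of 0.5 or 4, no filter or a minimum mean of 10, equal totals, quantile normalisation, no trend, each library left out, the replicate block and age as a covariate.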

Additional observations from a re-analysis of the deposited data

How the results depend on the processing

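Under 48 alternatives of the 4 fits the number of members past the threshold was 0, and 282 estimates of single members stayed on the same side of it. Few genes of all passed in these settings, 127 of 10204 at most and 0 in several. That no member passed was thus nearly fixed beforehand and says little about the members. With the replicate block 0 members passed in either comparison, the log2 difference of Blop being 0.23 between VSH and NVS and -1.13 between FOR and NUR. For FOR and NUR, which share 2 numbers only, the block gives the difference without NUR1. Blop kept its sign in 16 of 16 alternatives on age and in 13 of 13 between FOR and NUR (-1.13 to -0.76), and in 16 of 17 between VSH and NVS (-0.05 to 0.44). Between FOR and NUR, Lop1 (-0.02 to 1.55) and Lop2 (-0.66 to 0.74) changed sign with the library left out, as did the age slopes of Arr1, Arr2 and Lop2. A single forager left in a fit is assumed to vary like the nurses. The difference of Arr1 and Arr2 ranged from 0.12 to 0.34 between VSH and NVS and from -2.02 to -0.82 between FOR and NUR.

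Over all genes the calls moved by more than 1.5 times in several fits. For VSH against NVS, 4 genes became 127 with the replicate block, 2 without a filter, 7 without NVS1, 11 without NVS2, and 0 without a trend or without VSH1, VSH2, VSH3, NVS3 or NVS4. For FOR against NUR, 10 became 85 without NUR2, 6 with the block, 4 with a pseudocount of 0.5, no filter or a minimum mean of 10, 1 without a trend, and 0 without FOR2, FOR3 or NUR3. For age, 15 became 62 without VSH3, 4 without VSH2, 3 without VSH4, and 0 without VSH1, NVS1 or NVS4, a filter or a trend. The causes were not tested. Count models were not run, since the values are not whole reads. Few reads of Lop1 and Lop2 limit what can be seen.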
